A study of Cicer arietinum with 8 samples.

Results

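The salt response of roots was compared between 2 chickpea genotypes, locus by locus, as the log2 ratio of stressed to control expression in the salinity tolerant (ST) genotype minus the same ratio in the salinity sensitive (SS) genotype. A value above 0 therefore means that the response was higher (more upward, or less downward) in the ST genotype, and a value below 0 that it was higher in the SS genotype. The comparison covered every locus with at least 1 FPKM in all 4 groups, and 18918 of the 30692 loci (61.6%) met this rule. FPKM stands for fragments per kilobase of transcript, scaled to the number of mapped fragments. This unit allows for transcript length and sequencing depth but need not remove every difference in scale between groups. The 4 groups were ICCV2 (SS) control, ICCV2 salinity stress, JG62 (ST) control and JG62 salinity stress, each of 2 libraries and 8 libraries in all. Stressed plants received 80 mM NaCl every other day for 6 days from an age of 12 days, control plants were watered without salt, and all roots were harvested at 18 days according to the sample labels, whereas the series description gives 17 days. The deposited table holds 1 FPKM value per locus and group in which the authors combined both libraries. No spread between replicates, no standard error and no test could therefore be had for any value below, and every difference is a description of these 4 pooled columns. All RNA came from whole roots, so fewer cells of a type and less RNA per cell cannot be told apart.

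Salt in the soil first limits the water uptake of roots and later loads the tissue with sodium and chloride. Roots answer with compatible solutes, with pumps and exchangers that move sodium out of the cytosol or into the vacuole, and with hormone signals, of which abscisic acid is the best known. Genotypes of 1 crop can differ in these answers in 2 ways that the present measure adds together. A gene can respond in the same direction but to an unequal extent, or it can respond in opposite directions.

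Of the 11774 loci outside the rule, 6951 were listed at 0 in every group, 2219 were listed at 0 in some groups, and 2604 were above 0 in every group but under 1 FPKM in at least 1 of them. Only 71 of all these loci reached 10 FPKM in any group. At the edge of the rule, Ca_14518 (XLOC_022654) entered with a lowest value of 1.002 FPKM and a difference in response of -1.10, and Ca_08387 (XLOC_011166) stayed out with a lowest value of 0.9998 FPKM and a difference of -0.12. Among the members, 15909 loci carried 1 gene name (Ca_ and a number), 551 carried several names, so that their FPKM belongs to more than 1 gene, and 2458 carried none.

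Most responses to salt were small in the pooled values, and those of the 2 genotypes were only weakly correlated across loci. The log2 response had a median of -0.02 and an SD across loci of 0.35 in the SS genotype, and a median of 0.04 and an SD of 0.39 in the ST genotype. Their difference had a median of 0.07 and an SD of 0.48, and the middle 50% of loci lay between -0.13 and 0.26. Across the 18918 loci, the 2 responses had a Pearson correlation of 0.15 and a Spearman correlation of 0.17. The 2 responses share no column, but all points of 1 axis share the same pair of pooled libraries. Accordingly, the variance of the difference was 0.854 times the sum of the 2 variances, where a ratio of 1 would belong to unrelated responses. Measurement error, of unknown size here, lowers such a correlation, and its part in these values was not tested.

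**Figure D1:**
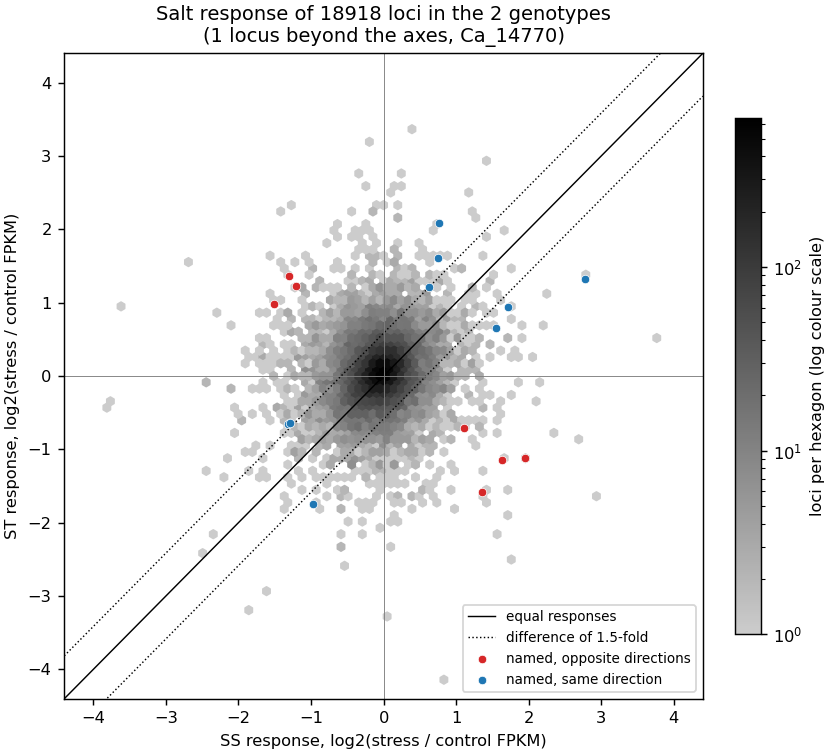
Salt response of each locus in the SS genotype (x axis) against that in the ST genotype (y axis), both as log2 of stressed over control FPKM, with the number of loci per hexagon as grey level. The solid line marks equal responses and the dotted lines a difference of 1.5-fold; the cloud is nearly round around 0, the named loci (coloured points) lie away from the solid line, and Ca_14770 (ST response 6.65) is beyond the axes.

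A difference in response was called at 1.5-fold, the fold limit that the study used for changed genes, which is 0.58 on the log2 scale. The study also required a p-value from Cuffdiff. Here loci were called by the fold limit alone, so the counts are not comparable with its counts of changed genes. By this limit, 2684 loci (14.2% of those tested) differed between the genotypes, of which 1695 (8.96%) had the higher response in the ST genotype and 989 (5.23%) in the SS genotype. For comparison, 1446 loci (7.64%) had an SS response of at least 1.5-fold, 611 (3.23%) higher and 835 (4.41%) lower under stress. An ST response of that size was found at 1923 loci (10.2%), 1139 (6.02%) higher and 784 (4.14%) lower under stress. At 2-fold the difference was reached by 948 loci (5.01%), 628 higher in ST and 320 higher in SS. At 4-fold 139 loci were left, and at 8-fold 24, of which 11 were higher in ST and 13 in SS. The limit itself separated loci that hardly differ, such as Ca_03107 (difference 0.5852, inside) and Ca_15504 (0.5849, outside).

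The excess of loci with the higher response in ST depended on how the 4 columns were scaled. It made up 63.2% of the called loci in the deposited values, 54.7% after median-ratio scaling and 51.0% after upper-quartile scaling. These scalings moved the median difference over all loci from 0.07 to 0.0088 and to -0.015, which is small beside the fold limit. With them, the loci higher in ST numbered 1454 and 1365, and those higher in SS 1206 and 1314. Counts by direction below refer to the deposited values, and the main ones are followed by their value under another scaling.

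The spread of the difference narrowed with expression level up to about 20 FPKM and hardly further. Loci were grouped by the geometric mean of their 4 FPKM values. The SD of the difference was 0.65 in the 658 loci from 1 to 2 FPKM and 0.68 in the 2626 loci from 2 to 5 FPKM. It was 0.55 from 5 to 10 FPKM, 0.42 from 10 to 20 FPKM and 0.36 in the 4588 loci from 20 to 50 FPKM. Above that it stayed at 0.36 from 50 to 100 FPKM, and was 0.42 from 100 to 500 FPKM and 0.38 in the 408 loci at 500 FPKM or more. In the lowest group the rule itself narrows the spread, since a locus close to 1 FPKM could not be much lower in any column without leaving the set. A spread that ignores the tails, the scaled median absolute deviation, went from 0.53 at 1 to 2 FPKM to 0.22 at 50 to 100 FPKM, and was 0.24 at 100 to 500 FPKM.

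The share of loci past 1.5-fold followed the spread. It was 28.4% from 1 to 2 FPKM, 29.5% from 2 to 5 FPKM, 16.7% from 5 to 10 FPKM and 10.8% from 10 to 20 FPKM. From 20 FPKM upward it stayed between 8.50% and 9.99% in every group. Most of the called loci thus lay under 10 FPKM. The part of counting error in this was not tested, since the depth of the libraries is not known from these values.

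The spread of the ST response was wider than that of the SS response in every group from 2 FPKM upward, by an amount that varied. The SDs in SS and ST were 0.25 and 0.29 from 50 to 100 FPKM, 0.24 and 0.35 from 100 to 500 FPKM, and 0.26 and 0.29 at 500 FPKM or more, whereas from 1 to 2 FPKM both were 0.51. The group from 100 to 500 FPKM holds Ca_14770, the locus with the largest difference of all, and without it, an alternative chosen after seeing the data, the ST response had an SD of 0.31 and the difference one of 0.38. The correlation between the responses was 0.04 from 100 to 500 FPKM (0.07 without Ca_14770) and 0.04 above, against values between 0.11 and 0.18 in each of the groups under 100 FPKM. Among the 178 called loci from 100 to 500 FPKM, 150 (84.3%) had the higher response in ST and 28 in SS. This share was 76.1% after median-ratio scaling, 70.9% after upper-quartile scaling and 74.7% when each response was centred on its median.

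The direction of the differences changed with level under each scaling. In the loci from 20 to 50 FPKM the share higher in ST was 70.5% as deposited and 57.1% after upper-quartile scaling, and from 50 to 100 FPKM it was 74.1% and 62.6%. Under 10 FPKM the deposited shares lay between 55.9% and 59.4%, and after upper-quartile scaling between 44.9% and 47.4%. At 500 FPKM or more, the 69.4% of the deposited values became 44.4%. An excess of responses higher in ST was thus present under every scaling tried only from 20 to 500 FPKM, and no such excess was left under 20 FPKM or above 500 FPKM after upper-quartile scaling.

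**Figure D2:**
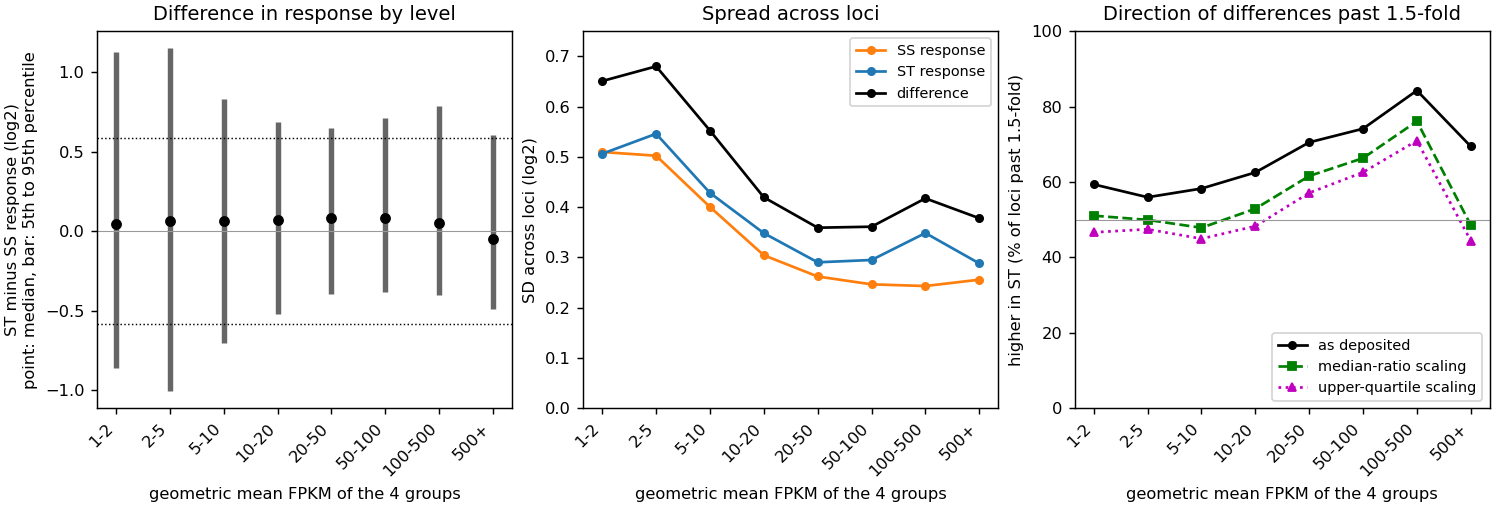
Difference in salt response by expression level: median and 5th to 95th percentile (left, log2), SD across loci of each response and of the difference (middle, log2), and the percentage of called loci with the higher response in ST under 3 scalings (right). The bars are longest at 2 to 5 FPKM and shorten from there up to 20 to 50 FPKM, where they span -0.40 to 0.65. The percentage peaks at 100 to 500 FPKM under each scaling.

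By sign, 10469 loci (55.3%) had responses in the same direction and 8449 (44.7%) in opposite directions. In detail, 5492 were higher under stress in both genotypes, 4977 were lower in both, 5337 were lower in SS and higher in ST, and 3112 were higher in SS and lower in ST. The last 2 counts follow the scaling, since they were 4253 and 4045 after median-ratio scaling and 3834 and 4428 after upper-quartile scaling. Most of these signs belong to responses close to 0.

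Of the 2684 called loci, 2039 (76.0%) had responses of opposite sign and 645 (24.0%) of the same sign. Expressed by class, 24.1% of the opposite-sign loci and 6.16% of the same-sign loci were past the limit. This contrast is set largely by arithmetic, because opposite responses add up to the difference while responses of the same sign are subtracted. Among the called loci of opposite sign, both responses reached 1.5-fold on their own in 186, only the ST response in 624, only the SS response in 380, and neither in 849. The last kind, in which 2 small responses of opposite sign sum to 1.5-fold, was thus the most frequent of the 4.

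Among the 645 called loci of the same sign, both responses reached 1.5-fold in 51, only the ST response in 369 and only the SS response in 225. The larger response was that of ST in 395 and that of SS in 250. Split by direction, ST was the larger in 235 of 333 loci that were higher in both, and in 160 of 312 that were lower in both. In loci higher in both, a larger ST response is by definition a higher response in ST, an excess that depended on scaling. None of these splits was recomputed under another scaling. The size of the difference was similar, with a median of 0.78 for loci higher in both, 0.78 for loci lower in both, 0.91 for loci lower in SS and higher in ST, and 0.86 for the reverse. The called loci lay at low levels, with a median geometric mean of 7.11 FPKM for the same sign and 8.98 FPKM for opposite signs, against 17.9 FPKM over all members.

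**Figure D3:**
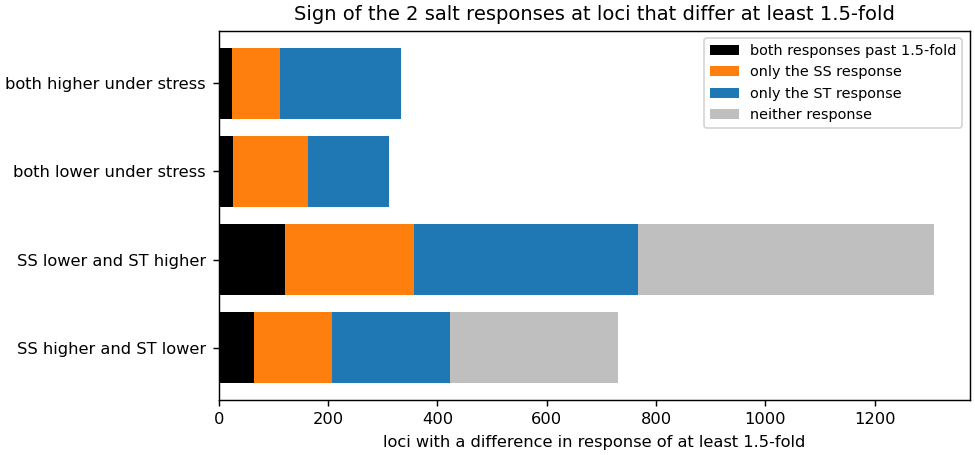
Number of loci with a difference in response of at least 1.5-fold (x axis), by the sign of the 2 responses (rows) and by which response reached 1.5-fold on its own (colours). Loci lower in SS and higher in ST form the longest bar (1308 loci, against 731 of the reverse), and neither response reached 1.5-fold in 541 of them. These are deposited values. The 2 counts were 1103 and 913 after median-ratio scaling, and 1044 and 1005 after upper-quartile scaling.

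A stricter reading keeps the 503 loci at which both responses reached 1.5-fold. Of these, 317 (1.68% of all loci tested) moved in the same direction and 186 (0.983%) in opposite directions. Because both responses had to pass the limit, loci with 1 large and 1 small response are left out here, and similar sizes in the 2 genotypes follow in part from this choice. In the 158 loci higher and the 159 loci lower in both, the median size of the response was 0.86 in SS and 0.87 in ST, and ST had the larger response in 155 and SS in 162. In 266 of the 317 the 2 responses lay within 1.5-fold of each other, and the other 51 (0.27% of all loci tested) differed by at least 1.5-fold. They divided into 14 loci higher in both with the larger response in ST, 11 higher in both and larger in SS, 12 lower in both and larger in ST, and 14 lower in both and larger in SS. The level of these 4 classes was low, with medians between 3.66 and 4.91 FPKM, and only 12 of the 51 had at least 5 FPKM in every group.

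The 186 loci of opposite direction were made up of 122 that were lower in SS and higher in ST and 64 of the reverse. After median-ratio scaling the counts were 109 and 75, and after upper-quartile scaling 101 and 79, so the first kind stayed the more frequent. The median size of the difference, without its sign, was 1.83 and 1.99, and median levels were 6.65 and 5.52 FPKM. At least 5 FPKM in every group was reached by 54 and 20 loci.

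The genes described next are the most extreme of each class among loci with exactly 1 gene name and at least 5 FPKM in every group. The deposited table pairs them with no function, so they are given by identifier. In the class lower in SS and higher in ST, 33 loci were open to this choice. Ca_14770 (XLOC_002656) had 769 FPKM in SS control, 504 in SS stress, 6.34 in ST control and 636 in ST stress. It lay between 504 and 769 FPKM in 3 groups and far lower in ST control alone, and its difference of 7.26, the largest of all members, rests on that column. Ca_06932 (XLOC_002599) had 15.1 and 6.16 FPKM in SS control and stress, and 18.3 and 47.2 in ST control and stress. The genotypes were close without salt and parted under it, with responses of -1.30 and 1.37 and a difference of 2.66. Ca_17474 (XLOC_017262) had 74.0 and 26.1 FPKM in SS against 16.2 and 32.0 in ST. Ca_02239 (XLOC_024493) had 58.7 and 25.5 FPKM in SS against 13.7 and 32.0 in ST. In both of these genes SS control was the highest group, and under stress the genotypes met at a similar level, with differences of 2.49 and 2.43.

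In the reverse class, higher in SS and lower in ST, 7 loci were open to the choice. Ca_06787 (XLOC_020457) had 35.8 FPKM in SS control, 138 in SS stress, 22.6 in ST control and 10.4 in ST stress. The genotypes moved apart, with responses of 1.95 and -1.12 and a difference of -3.06. Ca_18462 (XLOC_003165) had 489 and 1256 FPKM in SS, and 1499 and 499 in ST. Here the levels were exchanged, since ST control was closest to SS stress and ST stress to SS control, and the difference was -2.95. Ca_25595 (XLOC_028706) had 8.30 and 25.7 FPKM in SS, and 35.5 and 16.0 in ST. The same gene name is also given to a second locus (XLOC_028711) that lay between 1.64 and 2.29 FPKM in every group and differed by only -0.14. Ca_16949 (XLOC_016373) had 10.01 and 21.7 FPKM in SS, and 16.1 and 9.83 in ST, and its genotypes changed places under salt with a difference of -1.82. Ca_18460 (XLOC_003166), singled out after its values were seen because its locus number follows that of Ca_18462, had 1.30 and 3.47 FPKM in SS and 5.94 and 1.75 in ST. Its difference of -3.18 had the same pattern at a far lower level, and whether the 2 genes share reads was not tested.

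Genes higher in both genotypes but to an unequal extent were few, and 3 in each direction were open to the choice. Ca_03341 (XLOC_020212) had 30.3 and 51.4 FPKM in SS, and 35.8 and 151 in ST. Starting from similar control levels, it reached a response of 0.76 in SS and 2.08 in ST. Ca_14775 (XLOC_001079) had 24.6 and 41.4 FPKM in SS, and 9.98 and 30.3 in ST, so that the larger ST response (1.60 against 0.75) narrowed a gap that was present without salt. Ca_04086 (XLOC_014125) had 9.23 and 14.2 FPKM in SS and 9.54 and 22.1 in ST, and its difference of 0.59 dropped under the limit with a pseudocount of 1 and under each other scaling or centring (0.51 to 0.56). With the larger response in SS, Ca_12424 (XLOC_005609) had 13.0 and 89.1 FPKM in SS, and 93.3 and 234 in ST. Stressed SS roots thus only came to the level of unstressed ST roots, with responses of 2.78 in SS and 1.33 in ST. Ca_00619 (XLOC_002052) had 5.82 and 17.0 FPKM in SS and 6.49 and 10.2 in ST. Ca_07992 (XLOC_002146) had 7.27 and 23.8 FPKM in SS and 8.35 and 16.0 in ST. In both, the controls of the genotypes were closer to each other than the stressed values, and their differences were -0.89 and -0.77.

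Genes lower in both to an unequal extent were fewer still, with 1 locus open to the choice for ST and 2 for SS. Ca_21128 (XLOC_006332) had 14.7 and 7.47 FPKM in SS, and 24.5 and 7.28 in ST. The stressed levels were nearly equal, and the larger ST response (-1.75 against -0.98) came with the higher ST control. Ca_06808 (XLOC_020446) had 30.6 and 12.3 FPKM in SS, and 21.6 and 13.8 in ST, and Ca_03847 (XLOC_009099) had 20.1 and 8.24 FPKM in SS, and 8.26 and 5.31 in ST. Their differences of 0.66 and 0.65 lay close to the limit and were 0.58 and 0.56 after upper-quartile scaling.

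**Figure D4:**
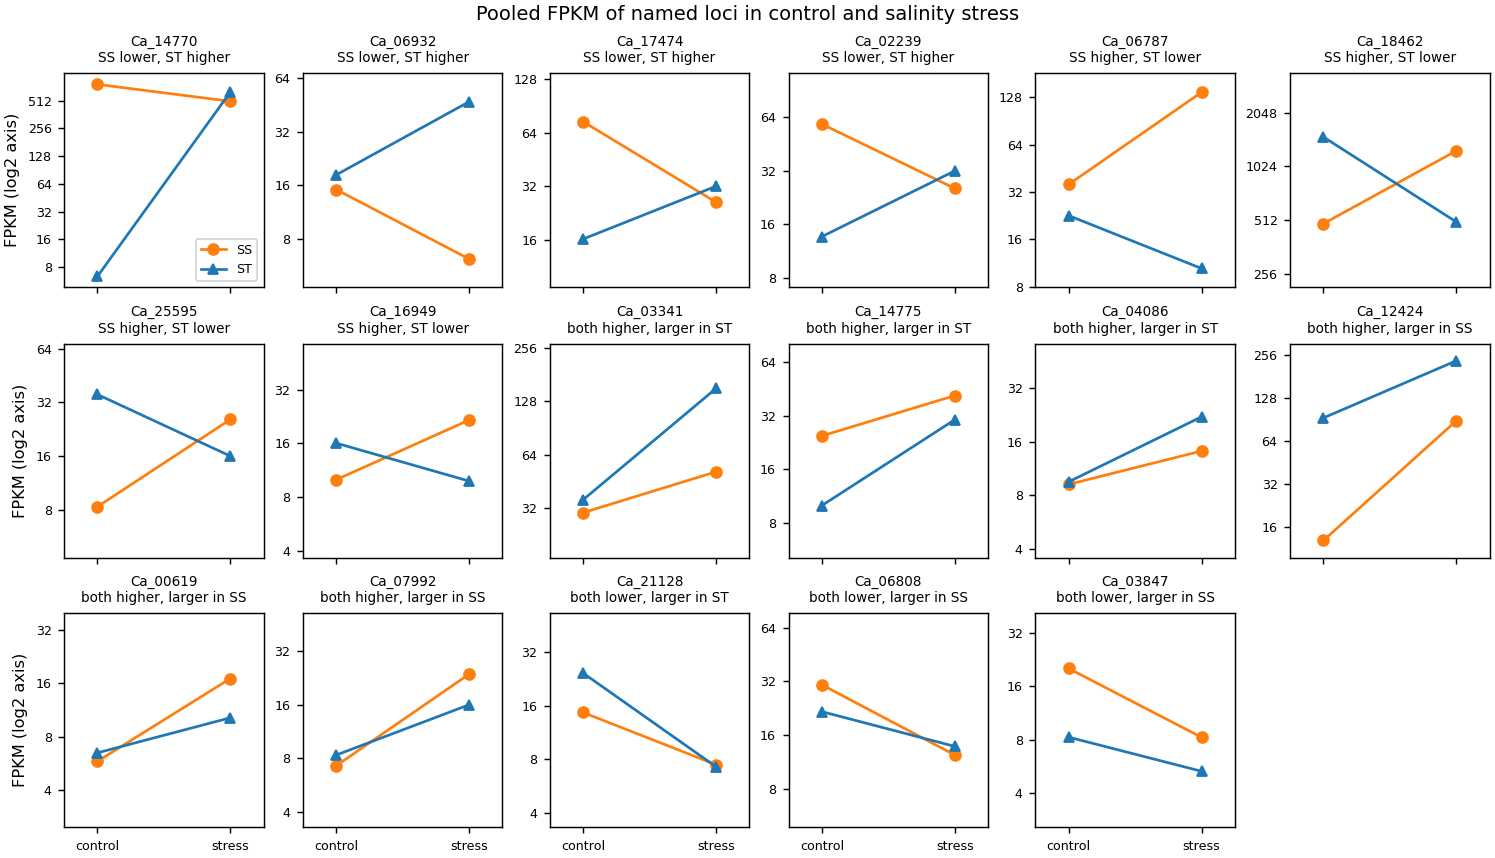
Pooled FPKM (y axis, log2) of the 17 loci named by class in control and salinity stress (x axis), with SS as orange circles and ST as blue triangles, each point being 1 value for 2 combined libraries. Lines of opposite slope mark genes of opposite direction such as Ca_18462, and Ca_14770 stands apart by its ST control value of 6.34 FPKM.

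Strongly expressed loci, with at least 100 FPKM in every group, numbered 1905. Of these, 119 were called with the higher response in ST and 26 with the higher response in SS, and the counts were 98 and 57 after upper-quartile scaling. Exactly 1 gene name was carried by 1690 of the 1905. Among those, the 3 widest differences toward ST were in Ca_13970, Ca_11381 and Ca_03261. A locus without a name, XLOC_020092, had a wider one (3.22). Ca_13970 (XLOC_003113), which the study describes as a homolog of an Arabidopsis transmembrane protein, had 286 and 169 FPKM in SS, and 141 and 286 in ST. It exchanged levels between the genotypes, since SS control equalled ST stress, and its difference was 1.78. Ca_11381 (XLOC_015569) had 137 and 127 FPKM in SS, and 164 and 481 in ST. Only the ST response was past 1.5-fold, and 3 groups lay together with ST stress above them. Ca_03261 (XLOC_021846) had 279 and 184 FPKM in SS and 480 and 962 in ST, which widened a gap already present in the controls.

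Toward SS, the widest differences at this level among loci with exactly 1 gene name were in Ca_18462, given above, and in Ca_25023 and Ca_07447. Ca_25023 (XLOC_025658) had 133 and 121 FPKM in SS, and 438 and 137 in ST. The 3 groups other than ST control were close together, and the difference was -1.53. Ca_07447 (XLOC_015429) had 645 and 577 FPKM in SS and 1028 and 505 in ST, with ST control again the highest group and a smaller difference of -0.86. Stressed ST roots had the lowest value of the 4 groups in Ca_07447 and the second highest in Ca_25023.

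Over all members, a single column stood apart as in these genes at a small share of loci. At 928 loci (4.91%) 1 group lay at least 1.5-fold outside the other 3 while those lay within 1.5-fold of each other. Of these loci, 734 were among the called ones, beside 14.2% of all members. That follows largely from arithmetic, since 1 column so far outside 3 close ones mostly carries the difference past the limit. ST salinity stress was above the rest at 191 loci and below at 108, and ST control was below at 161 and above at 106. For the SS genotype, salinity stress was below the rest at 129 loci and above at 64, and the control was above at 101 and below at 68. Such counts can follow the scaling of a column, and no other scaling was tried for them. The loci with ST salinity stress on top also had the highest level of these classes, with a median of 18.0 FPKM against medians between 4.72 and 8.31 FPKM in the other 7. Whether 1 of the 2 libraries combined in a column accounts for such a locus was not tested.

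The difference in response equals the change in the gap between the genotypes from control to stress. Among the called loci, the gap changed its sign at 1577 (58.8%), became wider with the same sign at 678 (25.3%) and narrower at 429 (16.0%). Over all members, where most gaps are small, the shares were 35.4%, 33.7% and 30.9%. Called loci with the higher response in ST widened the gap at 533 and narrowed it at 235. Those with the higher response in SS did so at 145 and 194. Another scaling was not tried for these counts. The gap was past 1.5-fold only in the controls at 704 called loci, only under stress at 911, in both with the same sign at 301, and in both with opposite signs at 141. Since the gap and the difference are built from the same 4 columns, these counts describe the called loci and are no separate support for them.

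Loci whose mean level differed between the genotypes also differed more in their response. The mean gap over control and stress is not fixed by the difference in response, but both use the same columns. A single column that stands apart moves both, so the trend is in part built in. It describes the called loci and is no separate support for them. At a mean gap under 1.1-fold, 6.77% of 8299 loci were called, and from 1.1-fold to 1.5-fold 14.5% of 8671. The share was 37.0% of 1293 loci from 1.5-fold to 2-fold, 58.7% of 595 loci from 2-fold to 4-fold, and 65.0% of 60 loci beyond. The median level was 23.0 FPKM in the first of these classes and between 9.75 and 14.6 FPKM in the others, so lower levels moved with this trend. Within the loci from 10 to 100 FPKM, where the median level of the classes lay between 24.4 and 33.0 FPKM, the shares were 4.18%, 10.01%, 33.6%, 61.4% and 67.9%, the last of 28 loci.

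Loci without a gene name differed more often than named ones. The call was reached by 29.0% of the 2458 loci with no name, by 12.0% of those with 1 name and by 12.2% of those with several, against 14.2% of all members. Loci without a name were also lower in level, with a median of 8.99 FPKM against 19.3 FPKM for those with 1 name. Within broad ranges of level, the shares for no name and 1 name were 37.3% and 19.4% under 10 FPKM. They were 19.1% and 8.50% from 10 to 100 FPKM, and 22.7% and 8.97% at 100 FPKM or more. Loci without a name still lay lower in each range, with medians of 4.23 against 5.01, 22.2 against 26.1, and 198 against 208 FPKM. Of the 20 loci with the largest differences, 15 had no gene name. As an example chosen after its values were seen, XLOC_012599 had 11.9 and 21.0 FPKM in SS and 24.7 and 1.35 in ST, a difference of -5.01. At a higher level, XLOC_020092, also chosen after its values were seen, had 440 and 149 FPKM in SS and 174 and 552 in ST, a difference of 3.22.

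The study names 17 genes by identifier, which lay at 18 loci of the table, since Ca_20130 is given to a pair of loci. They were chosen by the study for a change under stress in these same samples together with a change in DNA methylation, so their responses are a description and no independent evidence. All 18 loci were members. At 9 of them the difference in response was past 1.5-fold, 7 higher in ST and 2 higher in SS, beside 14.2% of all members. Directions were opposite at 8 loci and the same at 10.

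Among the genes with a regulatory role, Ca_09442, a homolog of the Arabidopsis transcription factor WRKY33 that acts in defence and salt responses, had 52.4 FPKM in SS control, 21.4 in SS stress, 62.6 in ST control and 80.1 in ST stress. Its level under salt was lower in SS and slightly higher in ST, with a difference of 1.65. The bHLH homologs Ca_20616 and Ca_07196, of a transcription factor family with members that control iron uptake in Arabidopsis roots, behaved otherwise. Ca_20616 had 7.56 and 4.30 FPKM in SS and 5.97 and 3.40 in ST, and Ca_07196 had 23.4 and 12.8 FPKM in SS and 14.8 and 7.60 in ST. Both were lower under stress in each genotype to nearly the same extent, with differences of 0.0018 and -0.09.

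Among the transporters, Ca_02410, a homolog of MATE family proteins that export organic compounds from cells, had 7.34 and 3.47 FPKM in SS, and 3.95 and 7.43 in ST. It was mirrored between the genotypes, with responses of -1.08 and 0.91 and the largest difference of the study's genes (1.99). Ca_25099, homologous to the citrate exporter FRD3 that supports iron transport to the shoot in Arabidopsis, had 26.5 and 8.89 FPKM in SS, and 10.4 and 1.39 in ST. It was lower under stress in both, more so in ST (-2.90 against -1.58), and its ST stress value was close to the lower limit of the rule. Its difference of -1.33 was -0.78 with a pseudocount of 1. Ca_12085, a Pht1;5 phosphate transporter homolog, had 115 and 143 FPKM in SS and 108 and 185 in ST, and both responses were upward with a difference of 0.47 that stayed under the limit.

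Enzymes of lipid and inositol metabolism were divided. Ca_02137, a homolog of patatin-related phospholipase A, which releases fatty acids from membrane lipids, had 11.2 and 12.3 FPKM in SS, and 35.7 and 15.3 in ST. Its higher ST control came down under stress toward the SS level, and the difference was -1.36. Ca_10731, a homolog of lipoxygenases, which oxidise polyunsaturated fatty acids, had 30.1 and 12.8 FPKM in SS and 11.6 and 6.73 in ST. It was lower under stress in both, with a difference of 0.45. Ca_09586, which the study names as a myo-inositol phosphate synthase (MIPS), an enzyme that makes the precursor of inositol, had 8.94 and 16.6 FPKM in SS and 5.86 and 10.3 in ST. The upward response was of the same size in both genotypes, with a difference of -0.08.

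The remaining genes of the study had the higher response in ST or differed little. Ca_12433, a homolog of the Arabidopsis calcium-dependent nuclease CAN2, had 27.8 and 18.1 FPKM in SS and 25.7 and 28.9 in ST, a difference of 0.79. Ca_12185 had 15.8 and 8.83 FPKM in SS and 20.6 and 26.0 in ST, a difference of 1.18. In both genes the SS response was downward and past 1.5-fold while the ST response was upward and under the limit. Ca_25894 and Ca_13125 lay between 1.86 and 5.91 FPKM in all groups, a level at which 29.5% of all loci from 2 to 5 FPKM were called, and differed by 1.27 and 1.12. Ca_22105, a homolog of the Ras-group leucine-rich repeat protein PIRL6, was higher under stress in both, with 45.8 and 86.4 FPKM in SS and 41.0 and 101 in ST and a difference of 0.38. The loci of Ca_20130 differed by 0.56 and 0.11. The locus that holds Ca_18464 together with another gene name had 124 and 155 FPKM in SS and 116 and 140 in ST. Its difference was -0.05, with both responses upward (0.32 and 0.27) and under 1.5-fold. The study instead reports Ca_18464 as higher under stress in SS and lower in ST. How far the other gene name at this locus accounts for that was not tested.

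**Figure D5:**
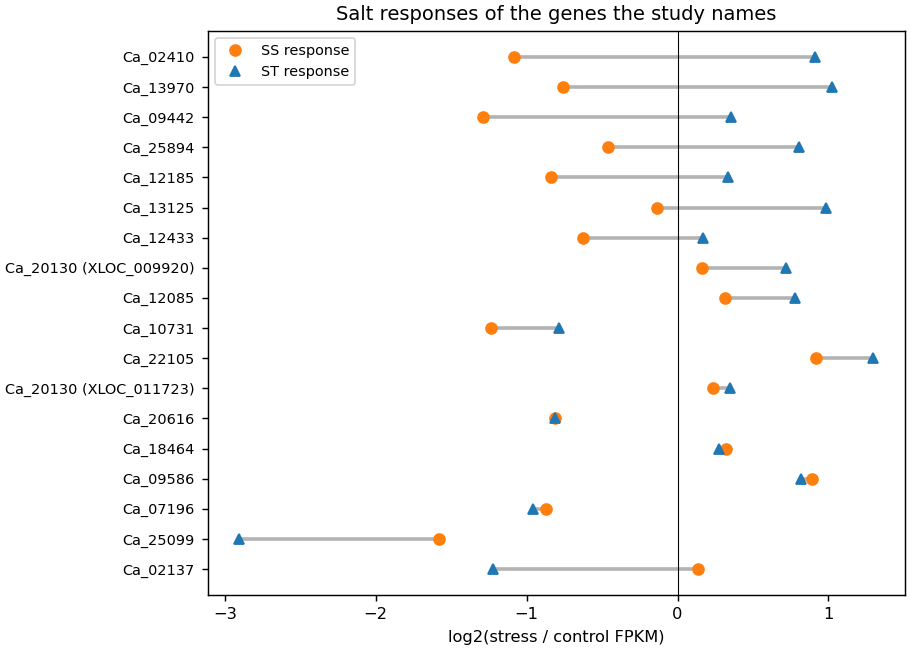
Log2 ratio of stressed to control FPKM (x axis) in SS (orange circles) and ST (blue triangles) at the 18 loci of the genes that the study names, ordered by the difference between the genotypes. The grey line is the difference, longest for Ca_02410 (1.99) toward ST and for Ca_02137 (-1.36) and Ca_25099 (-1.33) toward SS, and close to 0 for the bHLH homologs.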

How the data were processed

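Root RNA of 4 groups (2 libraries each) was sequenced as 49 bp single-end reads. According to the labels and the study's methods, the authors filtered reads at a Phred score of 20 with the NGS QC Toolkit, mapped them with TopHat2 2.1.1 on the Kabuli chickpea genome (version 1.0), assembled transcripts with Cufflinks 2.2.1 and estimated expression with Cuffdiff (2.2.1 in the labels, 2.1.1 in the methods). Each deposited value is an FPKM for 1 locus and 1 group, in which the authors combined the libraries of that group. The scaling between libraries is not given in the sources used here. The depth of the libraries is unknown. Whole reads could not be recovered, since among 538 SS and 479 ST loci above 0 and under 0.2 FPKM in both columns at most 7 and 4 shared a ratio of stress to control.

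Members were loci with FPKM of at least 1 in all 4 columns. Responses were plain log2 FPKM ratios without a pseudocount, called at 1.5-fold, and no test was possible with 1 value per group. A difference in FPKM can come from the scaling of a column, so median-ratio scaling, upper-quartile scaling and centring were run beside the deposited values. Further alternatives were pseudocounts of 0.1 and 1, no FPKM minimum or one of 5, a limit of 2-fold and, chosen after seeing the data, loci with exactly 1 gene name. The steps were run on simulated data with large planted differences and little noise. That checks the computation and says nothing on how reliable a call is in the real values. Named genes were, among loci with exactly 1 gene name and at least 5 FPKM in every group, the 4 with the largest difference in each opposite class and the 3 in each same-direction class (both responses past 1.5-fold, and in the same-direction classes also their difference), the 3 in each direction with at least 100 FPKM in every group, and the genes the study names by identifier. Others are marked. The members, lists and rules were chosen with earlier results of these data known. Of 28269 gene names in the table, 0 matched the reference table of genes at hand, so positions, sequences and further functions are not given, and root marker genes could not be looked up. In the table, 201 gene names stand at more than 1 locus. Python 3.11.15, numpy 2.4.6, pandas 2.3.3, scipy 1.17.1 and matplotlib 3.10.9 were used.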

Additional observations from a re-analysis of the deposited data

How the results depend on the processing

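No paired analysis was possible because both libraries of a group are combined in 1 column, and for the same reason no library could be left out. The 2684 called loci (1695 higher in ST, 989 in SS), the 186 loci of opposite direction and the 51 of unequal size in the same direction moved with the filter and with the fold limit. Without a minimum beyond FPKM above 0 they were 4319 (2599 and 1720), 484 and 238, and with at least 5 FPKM in every group 1441 (988 and 453), 74 and 12. A limit of 2-fold gave 948 (628 and 320), 31 and 8. With a pseudocount of 1 the last 2 counts were 115 and 24, and among loci with exactly 1 gene name, an alternative chosen after seeing the data, 95 and 27. Of the 122 and 64 loci of opposite direction, 52 and 33 had no gene name. The median difference of 0.07 became 0.0088 with median-ratio scaling, -0.015 with upper-quartile scaling and 0.0024 with centring, and the share of called loci higher in ST went from 63.2% to 54.7%, 51.0% and 53.6%. Among 39 named loci, 195 values were recomputed with a pseudocount, another scaling or centring. They kept their sign wherever the difference was past 1.5-fold, and 7 dropped under that limit, in Ca_04086, Ca_06808 and Ca_03847. A scaling or centring moves all differences by 1 common amount, small beside the limit, so it could not have reversed such a sign. The loci named by class were also chosen for large differences at 5 FPKM or more, where a pseudocount moves little. The widest shift was that of Ca_25099, from -1.33 to -0.78 with a pseudocount of 1. The depth behind the values is unknown, so the precision of a ratio at any level cannot be given.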

Other observations

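Some loci that the FPKM rule leaves out had a clear level in 3 groups and were listed at 0 in the fourth, so that no ratio can be formed. With at least 1 FPKM in the other 3 groups, 26 loci were listed at 0 in ST control, 18 in SS salinity stress, 13 in ST salinity stress and 9 in SS control. At 10 FPKM or more in the others, the counts were 1, 2, 2 and 0. An exact 0 can also be a failed estimate. The examples that follow were chosen after their values were seen. Ca_23991 (XLOC_027468) had 358 and 426 FPKM in SS control and stress, was listed at 0 in ST control and had 55.4 in ST stress. Ca_27838 (XLOC_028883) had 54.1 and 72.7 FPKM in SS, 13.0 in ST control and a listed 0 in ST stress. Ca_05851 (XLOC_016243) had 13.0 FPKM in SS control, a listed 0 in SS stress, and 8.12 and 21.6 in ST.

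Conversely, loci listed at 0 in 3 groups and at 1 FPKM or more in the fourth numbered 25 for ST salinity stress, 20 for ST control, 19 for SS control and 17 for SS salinity stress. Only 2 of them reached 10 FPKM, both in ST salinity stress. One is Ca_14005 (XLOC_009822), chosen after its value was seen, with 11.7 FPKM in ST salinity stress.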
